A study of Mus musculus with 20 samples.

Results

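The 34 genes followed here belong to cholesterol synthesis, uptake and export, and were measured in the colons of mice that had lost Pcca in the gut or in the liver. They were taken by gene symbol from a fixed list of 34 names, and all 34 were found among the 31184 genes that both deposited count tables share. The list was chosen with earlier results of these data known. Counts of members set beside shares of all genes below are therefore descriptive. Of the 34 genes, 26 act in synthesis, its control, or the uptake and carriage of sterol, and 8 act in export, esterification or trafficking. Every one of the 34 passed the filter on low counts in each comparison.

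Pcca encodes the alpha chain of a mitochondrial carboxylase that prepares propionyl-CoA for the citric acid cycle. RNA-seq was done on whole colon sections from 5 groups with 4 replicate libraries each, 20 libraries in all. On standard chow, at 9 weeks of age, these were Pcca ff mice (floxed littermates, here ff), Pcca Vill mice (deletion by Villin-Cre, which is active in the epithelium of the gut, here Vill) and Pcca Alb mice (deletion by Albumin-Cre, which is active in hepatocytes, here Alb). On a high fat diet with 60% of its energy from fat (HFD), given from 6 weeks of age for 12 weeks, they were male ff and Vill mice of 18 weeks. All mice were fasted for 4 hours. The sex of the chow mice and the deleted stretch of Pcca are not given in the sources used here. Whole colon also holds muscle, nerve and immune cells that Villin-Cre does not reach. The labels number the replicates without saying that each is a separate mouse, so the p-values below measure the spread between these libraries.

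Cholesterol is built from acetyl-CoA through mevalonate, isoprenoid units, squalene and lanosterol. When sterol in the endoplasmic reticulum is low, Scap carries the transcription factor SREBP-2, the product of Srebf2, out of the reach of the Insig proteins, and the genes of synthesis and uptake are transcribed together. When sterol is plentiful, oxysterols switch on the liver X receptors, the products of Nr1h2 and Nr1h3, and with them the export pumps Abca1 and Abcg1. Epithelial cells of the intestine both make cholesterol, above all in the crypts, and meet it from the lumen.

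The libraries held 27.9 to 40.4 M counted reads on chow and 16.9 to 24.4 M on HFD. The member with the fewest reads in any library was Abcg1, with 57. Pcca lay at 28.2 to 33.9 CPM (read counts scaled to a common library size with TMM, the trimmed mean of M values) in chow Vill libraries against 40.6 to 57.2 in chow ff and 39.3 to 60.2 in Alb (Vill against ff log2 -0.67, 95% interval -1.02 to -0.33, edgeR adjusted p = 1). On HFD it lay at 32.2 to 35.9 CPM in Vill, inside the ff range of 28.9 to 57.9. Colonocyte markers, 10 genes, summed to between 3680 and 20100 CPM, with the highest chow sums in ff 2 (15200) and Vill 1 (20100). Small intestine markers, 9 genes, summed to 1140 and 1700 CPM in HFD ff 1 and 3, against 285 to 579 in the other HFD libraries, and to 1350 and 1120 in chow ff 2 and Vill 1, against 87.4 to 909 in the other chow libraries. Squamous epithelium markers, 7 genes, summed to 97.9 CPM in Alb 2 and to 2.37 to 9.78 in all other libraries. These libraries are named again where a result rests on them.

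To compare genes with each other, levels were divided by the gene length in the deposited tables. In chow ff colons the member with the highest level per length was Hmgcs1, the synthase that opens the mevalonate route, at 70.1 ± 31.8 CPM per kb (SD, n = 4). Next came Insig1, which holds Scap in the endoplasmic reticulum, at 45.8 ± 6.15 CPM per kb, Npc2, a lysosomal cholesterol carrier, at 45.4 ± 18.1, and Stard4, a cytosolic sterol carrier, at 44.6 ± 4.28. These lay within each other's spread. The lowest were Abca1 at 2.08 ± 0.43, Abcg1 at 1.39 ± 0.18 and Fdps at 1.17 ± 0.16 CPM per kb. Hmgcs1 was first and Insig1 second in all 3 chow groups. On HFD, Stard4 was second, at 55.3 ± 9.47 CPM per kb in ff and 60.9 ± 6.40 in Vill.

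The level of Fdps, farnesyl diphosphate synthase, rests on 60 to 244 reads a library and is uncertain, and whether reads are split with copies of the gene was not tested. Acat2 has a close neighbour, Acat3, which took 3 to 23 reads a chow library. For Idi1, 5 pseudogenes in the chow table took at most 35 reads each in a library and its paralog Idi2 at most 6, against 819 to 2118 for Idi1 itself.

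Alb colons, which keep Pcca in the gut, stood lower than ff colons across nearly the whole synthesis route. On chow 25 of the 26 synthesis and uptake genes had lower fitted levels in Alb than in ff, with a median log2 difference of -0.45 and a range of -0.97 to 0.13. The 8 export, esterification and trafficking genes had a median of 0.10, with 5 higher and 3 lower. Without ff 3 that median was 0.01 and without Alb 2 it was 0.05, with 4 of 8 higher in each case. Over all 19701 tested genes the median was 0.00045. No member passed edgeR's quasi-likelihood test after Benjamini-Hochberg adjustment over all genes, where 0% of genes were called, and limma-voom called none either. DESeq2 called 1 member, Idi1, among 11 of 18896 genes (0.0582%). At an unadjusted p under 0.05, with a 95% interval wholly below 0, stood 16 of the 26 synthesis and uptake genes, against 2.66% of all genes, and 0 of the 8 export genes stood apart on either side. All 4 Alb libraries lay below all 4 ff libraries for 10 of the 26, against 1.37% of all genes, and above them for 1 of the 8 export genes, against 1.42% of all genes. As the list was chosen with earlier results of these data known, these counts are no independent support. In whole tissue, fewer cells that transcribe the synthesis genes and less RNA per cell cannot be told apart.

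**Figure D1:**
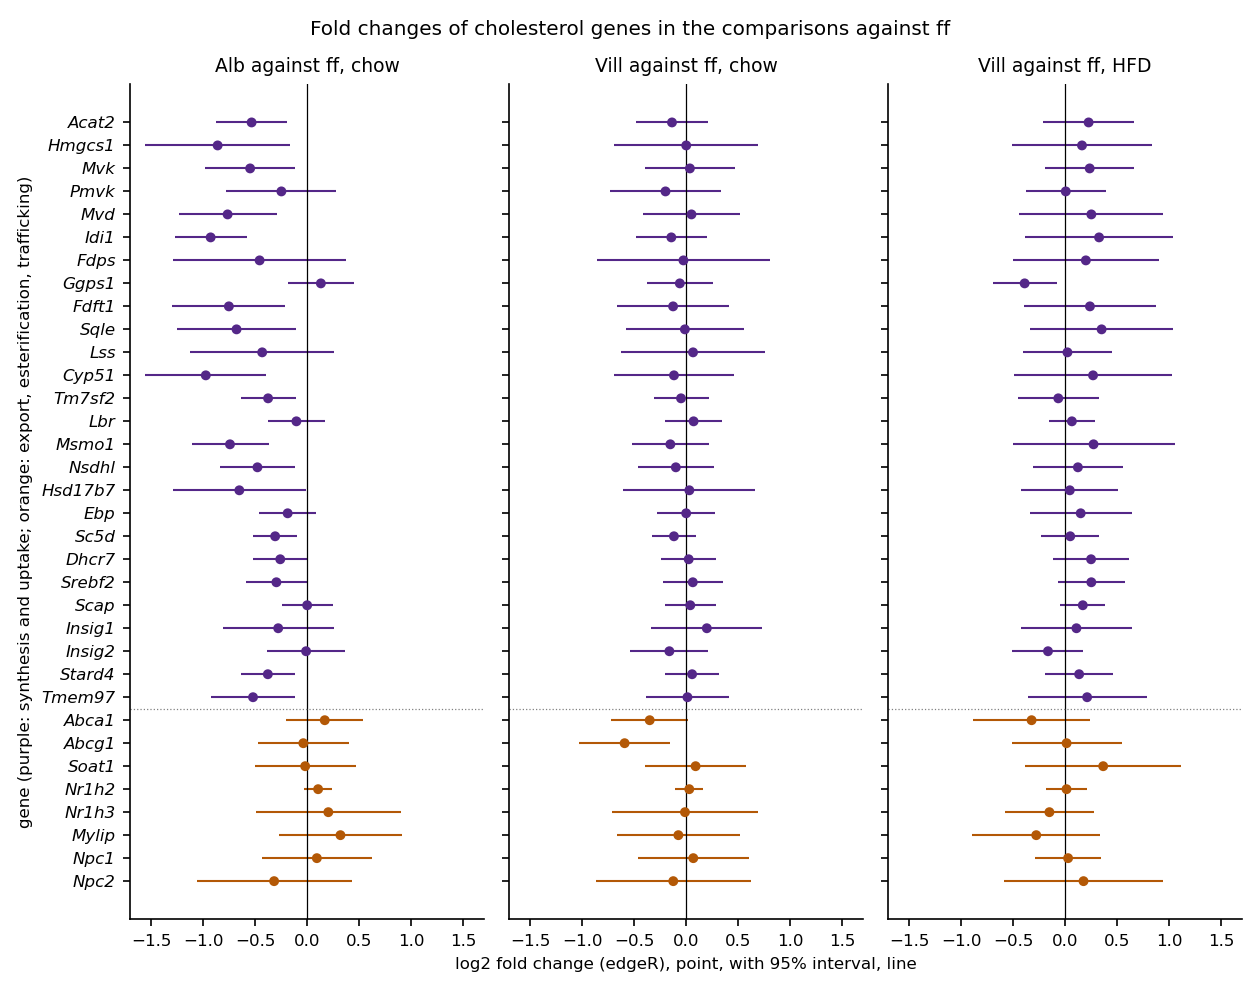
Log2 fold changes of the 34 genes (points) with their 95% intervals (lines) from edgeR, in Alb against ff and Vill against ff on chow and in Vill against ff on HFD, with synthesis and uptake genes in purple and export, esterification and trafficking genes in orange. In the left panel 25 of 26 purple points lie below 0 and 16 purple intervals miss it, while in the middle panel the purple points split 13 and 13.

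In the mevalonate arm 7 of 8 genes were lower in Alb than in ff (median log2 -0.54), and 4 of the 8 had no overlap between the groups. Idi1, the isomerase that makes dimethylallyl diphosphate, stood at 61.7, 67.4, 48.1 and 55.4 CPM in chow ff, at 69.2, 47.3, 44.2 and 50.1 in Vill and at 37.8, 28.2, 30.7 and 26.7 in Alb. Every Alb library lay below every other chow library. The level in Alb was 52.5% of that in ff (log2 -0.93, SE 0.16, 95% interval -1.27 to -0.58, edgeR adjusted p = 0.855). DESeq2 gave Idi1 a log2 difference of -0.92 with an adjusted p of 0.00241, and the authors' deposited table gives -0.92 with 0.00171. Idi1 is the only member called in the authors' deposited table for this comparison.

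Mvd, which makes isopentenyl diphosphate from mevalonate diphosphate, stood at 29.97, 52.2, 31.7 and 38.9 CPM in ff, at 54.2, 33.1, 37.4 and 33.8 in Vill and at 26.6, 16.3, 24.0 and 23.8 in Alb. Its Alb libraries lay below all others, with 58.8% of the ff level (log2 -0.77, SE 0.22, edgeR adjusted p = 0.99). Hmgcs1 stood at 192, 528, 255 and 315 CPM in ff, at 494, 266, 238 and 292 in Vill and at 194, 124, 232 and 167 in Alb. Here the ff and Alb ranges overlapped, and the log2 difference was -0.86 with a 95% interval of -1.56 to -0.16. Acat2, which condenses acetyl-CoA in the cytosol, and the mevalonate kinase Mvk were lower in every Alb library than in every ff library, at 69.0% and 68.4% of ff.

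Ggps1 and Fdps stand at the branch where isoprenoid units leave for squalene or for longer chains. Ggps1, which makes the geranylgeranyl group that anchors proteins to membranes, had a higher fitted level in Alb (35.6 ± 6.31 CPM in ff, 39.4 ± 6.54 in Alb, SD, n = 4, log2 0.13). Fdps stood at 4.53, 5.49, 5.55 and 4.20 CPM in ff, at 7.68, 3.31, 3.98 and 4.49 in Vill and at 3.23, 2.50, 6.98 and 1.92 in Alb. Its Alb libraries spread wider than the ff range on both sides. Pmvk, phosphomevalonate kinase, had a log2 difference of -0.25 with overlapping groups.

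From squalene to sterol all 12 genes were lower in Alb than in ff, with a median log2 of -0.46 and a range of -0.97 to -0.10. Cyp51, the lanosterol demethylase, stood at 177, 234, 124 and 146 CPM in ff, at 224, 124, 108 and 171 in Vill and at 115, 58.0, 93.0 and 83.7 in Alb. All Alb libraries lay below all ff libraries, at 50.9% of their level (log2 -0.97, SE 0.27, 95% interval -1.56 to -0.39, edgeR adjusted p = 0.99). Msmo1, which oxidises the methyl groups at carbon 4 of the sterol ring, stood at 166, 252, 148 and 187 CPM in ff, at 207, 156, 146 and 169 in Vill and at 140, 99.6, 113 and 102 in Alb. Again no Alb library reached the lowest ff or Vill library (59.8% of ff, log2 -0.74, SE 0.17, edgeR adjusted p = 0.99).

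Fdft1, squalene synthase, was at 81.4 ± 19.9 CPM in Alb and 136 ± 40.4 in ff (SD, n = 4), without overlap. Sqle, squalene epoxidase and a rate-limiting step after mevalonate, stood at 106, 202, 116 and 139 CPM in ff, at 179, 113, 122 and 144 in Vill and at 123, 51.7, 94.3 and 85.6 in Alb. Alb 1 lay inside the ff range and the other 3 below it (log2 -0.68, 95% interval -1.25 to -0.11). Lss, which closes the ring to lanosterol, stood at 47.7, 78.1, 48.6 and 48.0 CPM in ff, at 99.1, 40.3, 48.4 and 45.2 in Vill and at 57.8, 30.2, 50.6 and 28.0 in Alb. Its Alb libraries fell into a higher and a lower pair, and the interval of its difference, -1.13 to 0.26, covered 0.

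Dhcr7, the final reductase, stood at 84.0, 95.3, 105 and 107 CPM in ff, at 91.7, 98.1, 115 and 93.9 in Vill and at 69.2, 92.6, 82.3 and 85.6 in Alb (log2 -0.26 for Alb against ff, interval -0.52 to 0.0028). Sc5d, the desaturase just before it, showed a small difference without overlap, at 92.6 ± 6.14 CPM in Alb against 114 ± 16.2 in ff (SD, n = 4, log2 -0.31). Lbr, a sterol reductase that also anchors chromatin to the nuclear envelope, had the value nearest 0 among the 12, -0.10. Ebp, Nsdhl, Hsd17b7 and Tm7sf2 lay between -0.65 (Hsd17b7) and -0.19 (Ebp), each with overlapping groups.

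Among the 4 sensing genes the differences were smaller, with a median log2 of -0.14. Srebf2 stood at 254, 335, 254 and 260 CPM in ff, at 360, 253, 259 and 282 in Vill and at 222, 200, 242 and 243 in Alb. The Alb libraries lay just below all others, at 81.4% of ff (log2 -0.30, 95% interval -0.59 to -0.01). Insig1 stood at 116, 162, 141 and 147 CPM in ff, at 230, 130, 125 and 167 in Vill and at 109, 88.0, 182 and 92.8 in Alb. Alb 3 was above every ff library and the other 3 were below every one. Insig2 stood at 52.6, 69.8, 46.2 and 45.1 CPM in ff, at 51.5, 47.1, 36.1 and 56.4 in Vill and at 61.3, 46.6, 61.2 and 44.9 in Alb. Scap stood at 59.1, 62.0, 66.2 and 63.5 CPM in ff, at 69.6, 60.2, 71.9 and 56.8 in Vill and at 53.4, 71.4, 60.8 and 67.3 in Alb. The log2 differences of Insig2 and Scap between Alb and ff were -0.01 (interval -0.39 to 0.36) and -0.00034 (interval -0.24 to 0.24).

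Both carriers were lower in Alb. Stard4 stood at 256, 255, 271 and 215 CPM in ff, at 314, 227, 252 and 244 in Vill and at 223, 178, 198 and 175 in Alb. Alb 1 overlapped the lowest ff library only, and the log2 difference was -0.38 with a 95% interval of -0.64 to -0.12. Tmem97, a membrane protein that binds sterols and Npc1, was at 69.7% of ff without overlap.

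The export side held no comparable shift between Alb and ff. Abca1, the pump that loads cholesterol onto apolipoprotein A-I, stood at 22.7, 22.6, 15.1 and 25.7 CPM in ff, at 15.7, 20.4, 16.6 and 15.0 in Vill and at 22.5, 21.9, 24.1 and 29.1 in Alb. Abcg1, which passes sterol on to larger lipoproteins, stood at 11.3, 11.2, 8.62 and 9.45 CPM in ff, at 5.36, 6.95, 6.04 and 8.56 in Vill and at 13.1, 9.50, 7.31 and 9.96 in Alb. For both pumps the ff and Alb libraries overlapped and the Vill values were low, as taken up below. Soat1, which esterifies cholesterol for storage, stood at 85.4, 48.4, 64.3 and 88.0 CPM in ff, at 49.0, 86.1, 75.3 and 95.03 in Vill and at 60.2, 75.0, 77.2 and 72.9 in Alb.

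Of the liver X receptors, Nr1h2 stood at 102, 101, 101 and 93.4 CPM in ff, at 105, 102, 101 and 98.4 in Vill and at 111, 105, 105 and 110 in Alb. Its Alb libraries lay just above all others, by a log2 difference from ff of 0.10 (SE 0.06, edgeR adjusted p = 0.99). Nr1h3 stood at 14.1, 13.9, 18.5 and 25.5 CPM in ff, at 11.3, 19.0, 26.8 and 14.7 in Vill and at 14.7, 30.4, 15.2 and 23.4 in Alb, with full overlap. Mylip, the ubiquitin ligase through which liver X receptors remove lipoprotein receptors, stood at 25.6, 19.8, 32.2 and 34.8 CPM in ff, at 21.2, 27.7, 38.5 and 19.9 in Vill and at 35.1, 47.4, 22.4 and 36.8 in Alb.

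Npc1 and Npc2 hand cholesterol out of the lysosome. Npc1 stood at 46.6, 81.9, 40.5 and 43.2 CPM in ff, at 64.0, 46.4, 39.3 and 72.5 in Vill and at 58.7, 48.0, 69.8 and 51.6 in Alb. Npc2 stood at 278, 143, 198 and 369 CPM in ff, at 140, 251, 289 and 230 in Vill and at 140, 290, 133 and 236 in Alb. The partners were not high in the same libraries: ff 2 held the highest Npc1 and one of the lowest Npc2 values.

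**Figure D2:**
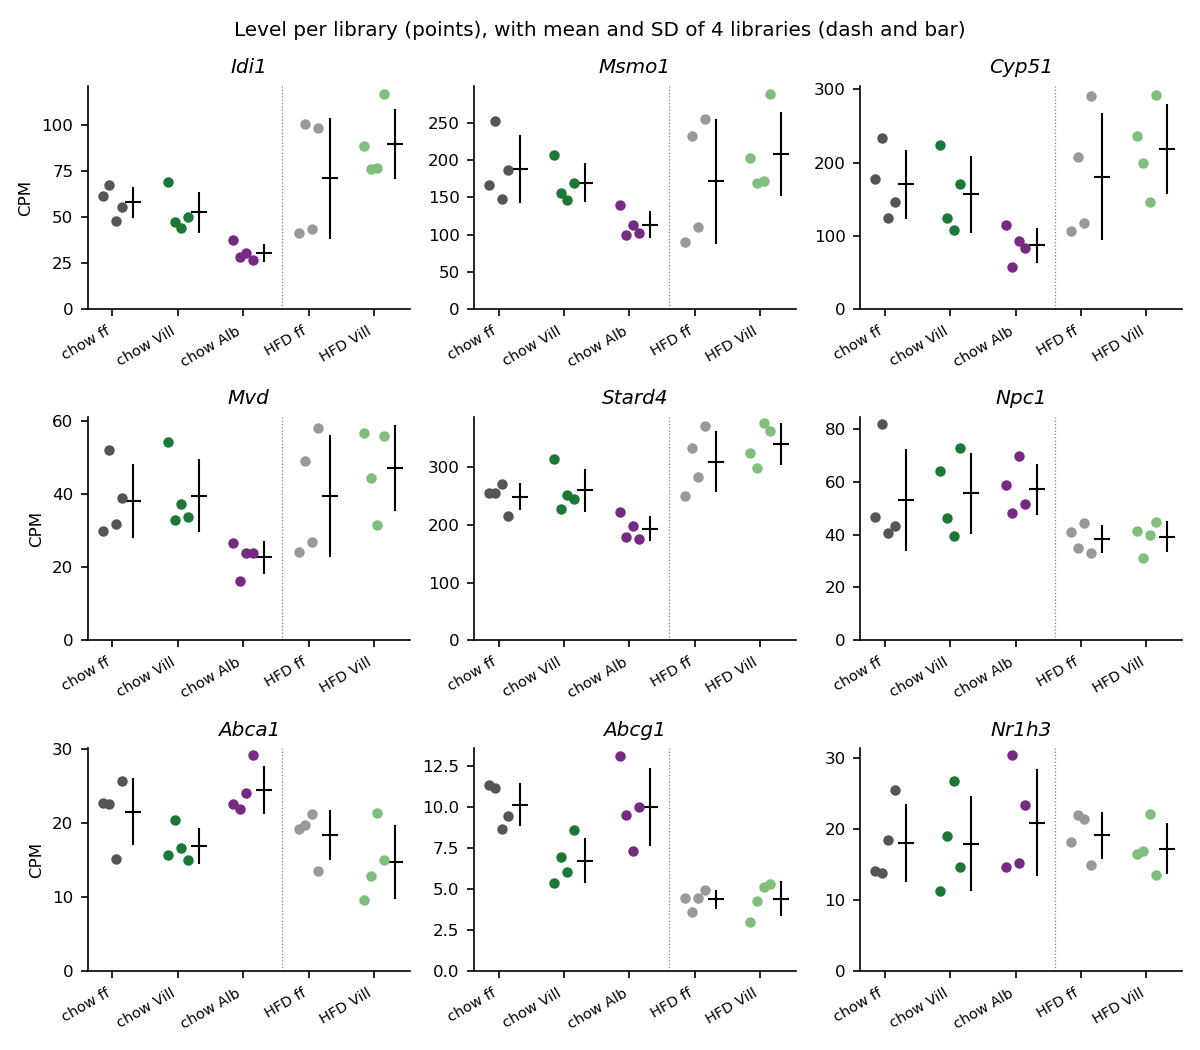
Level in CPM of 9 genes in each of the 20 libraries (points), with the mean (dash) and SD (bar) of the 4 libraries of each group; chow and HFD libraries are separated by a dotted line and every axis starts at 0. Idi1, Msmo1, Mvd and Cyp51 are lower in all 4 chow Alb libraries than in all 4 chow ff libraries, and Abcg1 is lower in all 4 chow Vill libraries than in all 4 chow ff libraries.

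Genes outside the 34 that share the pathway were less uniform. Of 12 fatty acid genes that SREBP factors also control, 10 had lower and 2 higher values in Alb than in ff (median log2 -0.17, 0 called). Fasn, fatty acid synthase, was at 157 ± 16.6 CPM in Alb and 211 ± 17.2 in ff without overlap (SD, n = 4, log2 -0.44, edgeR adjusted p = 0.99), and Scd2, a desaturase, had a log2 difference of -0.49 with overlap. Of 11 genes of the isoprenoid branch, 8 had lower and 3 higher values (median -0.04, 0 called), with Pdss1, which builds the tail of coenzyme Q, at -0.34 without overlap and Pdss2, its partner subunit, at -0.11. Of 29 other genes of sterol handling, 15 had lower and 14 higher values (median -0.02, 0 called).

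Markers of other cell types differed between Alb and ff in the same libraries. All 12 markers of dividing crypt cells had lower values in Alb (median log2 -0.63), with sums of 295 to 496 CPM against 456 to 775 in ff. All 8 goblet markers were lower (median -0.44), as were all 8 B and plasma cell markers (median -0.61) and all 6 T cell markers (median -0.43). All 10 smooth muscle markers were higher in Alb (median 0.37), with sums of 4960 to 13100 CPM against 4440 to 9400, as were 9 of 10 neuron and glia markers (median 0.52). Epithelial markers had a median of -0.06, with 5 of 8 lower, and colonocyte markers a median of 0.12, with 7 of 10 higher. No marker was called, and the part of these cells in the cholesterol result was not tested. Alb 2, the library with squamous markers, had the lowest chow level for 11 of the 26 synthesis and uptake genes. Without it 24 of the 26 were still lower than ff and the median was -0.33. Without Alb 4, lowest for 8, the median was also -0.33, and leaving out any other single ff or Alb library gave -0.35 (without ff 2) to -0.51 (without Alb 1).

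**Figure D3:**
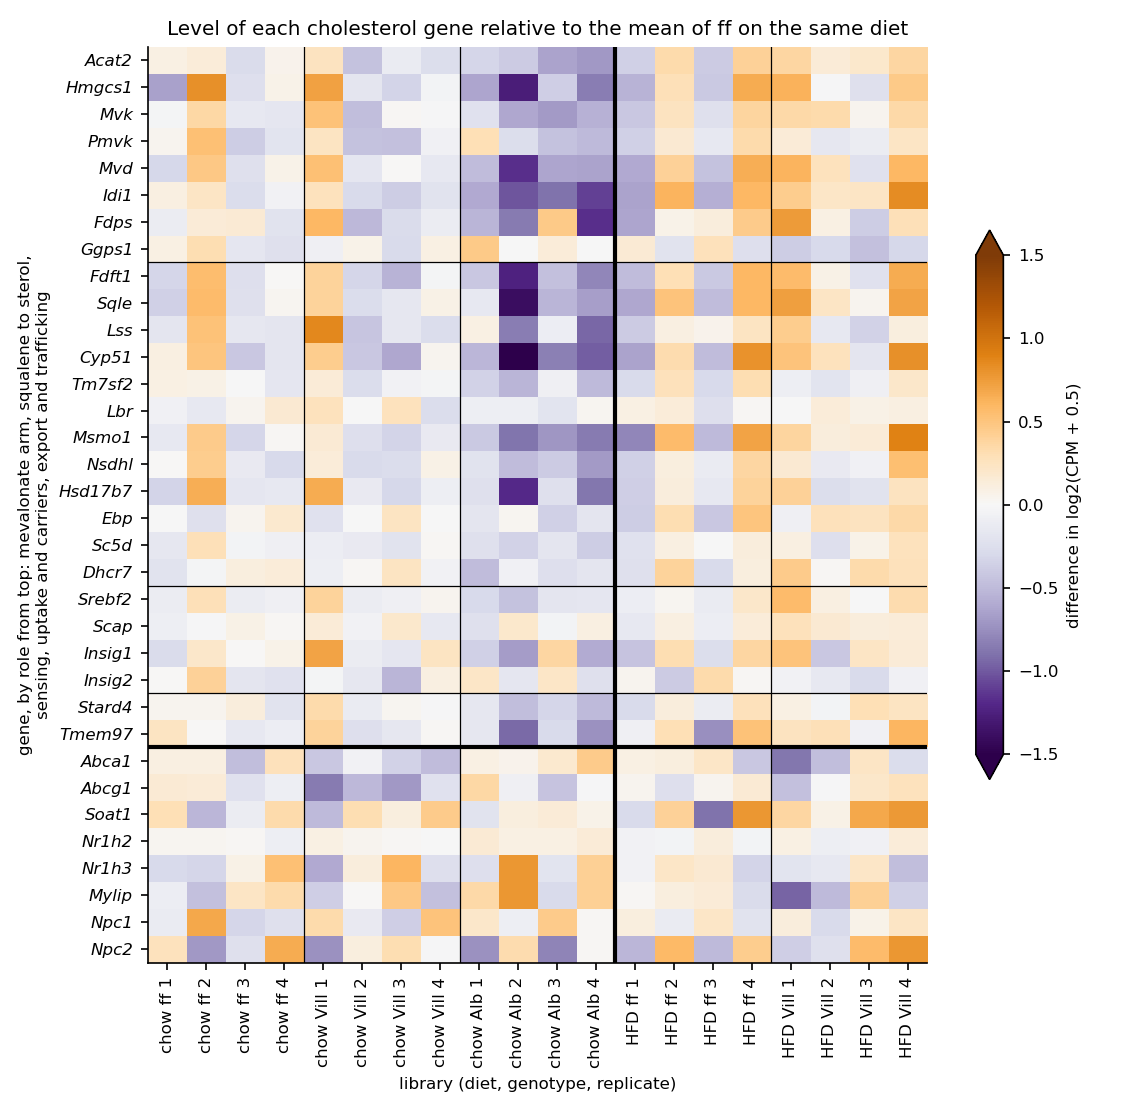
Level of each of the 34 genes (rows) in each of the 20 libraries (columns) as the difference in log2(CPM + 0.5) from the mean of the ff libraries on the same diet, with orange for higher and purple for lower; thick lines separate the synthesis and uptake rows from the export rows and chow from HFD. Alb 2 and Alb 4 are purple over most synthesis rows, ff 2 and Vill 1 are orange, and on HFD the ff columns alternate between purple (1 and 3) and orange (2 and 4).

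Since the synthesis genes were lower together in Alb, the DNA just upstream of their start sites was examined. SREBP-2 binds sterol regulatory elements and works beside NF-Y, which binds CCAAT boxes, and Sp1, which binds GC boxes. Promoter sequences from RefSeq (GRCm38.p6, a different build from the mm39 of the count tables) were available for 28 of the 34 genes, 22 of synthesis and uptake and 6 of export. The 250 bases before each start were searched on both strands. CCAAT (or ATTGG) occurred in 20 of the 22 synthesis and uptake genes and in 3 of the 6 export genes, against 37.5% of 27025 genes. GGGCGG (or CCGCCC) occurred in 20 of 22 and in 3 of 6, against 35.4%. The core sterol element TCACNCCAC occurred in 1 of 22, Hmgcs1, and in 0 of 6, against 1.22%, and the nuclear receptor hexamer TGACCT (or AGGTCA) in 3 of 22 and 0 of 6, against 15.8%. A match of letters is no evidence of binding, and the share of genes with CCAAT or GGGCGG also follows the base composition of promoters. Only these exact strings in the 250 bases were searched. A missing match is therefore no evidence that a gene lacks a sterol element.

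Stretches of 150 bases show how these letters lie, 4 from genes of synthesis and 1, Abca1, from an export gene without CCAAT in this window. They are written 5′ to 3′ on the gene's strand and end at the base before the start site, except Lss, which ends 18 bases before it. Capitals mark TCACNCCAC and CCAAT or ATTGG.
Hmgcs1 (chr13:119690201-119690350, plus strand): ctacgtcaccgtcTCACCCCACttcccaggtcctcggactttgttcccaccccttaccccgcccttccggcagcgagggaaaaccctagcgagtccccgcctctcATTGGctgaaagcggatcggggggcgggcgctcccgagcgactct
Mvd (chr8:122443423-122443572, minus strand): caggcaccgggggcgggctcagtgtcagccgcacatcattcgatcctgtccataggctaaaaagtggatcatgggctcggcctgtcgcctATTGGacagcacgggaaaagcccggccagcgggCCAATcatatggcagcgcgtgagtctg
Mvk (chr5:114444119-114444268, plus strand): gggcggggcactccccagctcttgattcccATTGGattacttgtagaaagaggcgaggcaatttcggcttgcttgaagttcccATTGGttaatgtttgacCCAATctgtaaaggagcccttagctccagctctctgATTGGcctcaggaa
Lss (chr10:76531438-76531587, plus strand): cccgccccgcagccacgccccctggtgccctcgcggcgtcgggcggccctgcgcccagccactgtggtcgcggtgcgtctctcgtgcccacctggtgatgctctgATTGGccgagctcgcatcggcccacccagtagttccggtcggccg
Abca1 (chr4:53159896-53160045, minus strand): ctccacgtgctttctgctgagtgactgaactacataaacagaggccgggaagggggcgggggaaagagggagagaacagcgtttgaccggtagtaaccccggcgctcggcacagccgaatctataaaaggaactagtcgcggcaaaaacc
Hmgcs1 holds both the sterol element and a CCAAT box in these 150 bases, whereas Mvd and Mvk hold more than 1 CCAAT box each and no match to the sterol element. Of the 4 synthesis genes shown, Mvd and Mvk were lower in every Alb than in every ff library, and Hmgcs1 and Lss overlapped. These genes were picked for display. Over the 250 bases searched, CCAAT matches numbered 0 in Acat2 and 3 in Msmo1, both lower in Alb without overlap. They numbered 1 in Lss and 3 in both Hsd17b7 and Hmgcs1, all with overlap. Whether the number of boxes goes with the levels was not tested.

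In chow colons with Villin-Cre the synthesis genes were divided. In chow Vill against ff, 13 of the 26 synthesis and uptake genes had higher and 13 lower values, with a median log2 of -0.01 and a range of -0.20 to 0.20, beside a median of 0.0034 over all genes. The 8 export genes had a median of -0.04, with 5 lower. No member was called by edgeR, DESeq2 or limma-voom (0.00508% of genes by edgeR), and at an unadjusted p under 0.05 stood 1 of the 34, Abcg1 (1.9% of genes). None of the 34 was higher in all Vill than in all ff libraries (0.67% of genes), and only Abcg1 was lower in all of them (0.615%).

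Abcg1 was at 66.3% of ff in chow Vill (6.73 ± 1.38 against 10.1 ± 1.32 CPM, SD, n = 4, log2 -0.59, SE 0.20, 95% interval -1.03 to -0.15, edgeR adjusted p = 1). The highest Vill library, 8.56 CPM, lay just under the lowest ff library, 8.62. Abca1 was also low in Vill, at 16.9 ± 2.41 against 21.5 ± 4.50 CPM (log2 -0.35, 95% interval -0.72 to 0.02), and ff 3 lay inside the Vill range. The liver X receptor genes themselves were near 0, Nr1h2 at 0.03 (interval -0.11 to 0.16) and Nr1h3 at -0.01 (interval -0.71 to 0.69). Among the synthesis genes the smallest p-values belonged to Sc5d (-0.12), Insig2 (-0.16), Idi1 (-0.14, interval -0.49 to 0.20) and Msmo1 (-0.15), all with overlapping groups. Macrophage markers had lower values in Vill for 6 of 7 genes (median -0.36, sums 56.6 to 123 CPM against 92.3 to 161 in ff). All 8 fibroblast (median -0.33), 10 smooth muscle (-0.51) and 8 B and plasma cell markers (-0.33) were lower too. So were all 8 goblet (-0.24), all 6 endothelial (-0.23) and 9 of 10 neuron and glia markers (-0.21). All 12 markers of dividing crypt cells were higher (0.12), as were 5 of 8 epithelial (0.03) and 5 of 6 T cell markers (0.08). The part of these cells in the difference of the pumps was not tested.

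The even split rests in part on 1 library. Vill 1 held the highest chow level for 12 of the 26 synthesis and uptake genes and ff 2 for 9. Both also had the highest chow sums of colonocyte and small intestine markers. Without Vill 1 the median difference of the synthesis genes was -0.17, and leaving out any other single ff or Vill library gave -0.073 (without ff 1) to 0.04 (without Vill 2).

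The gut and liver knockouts were also set against each other. This comparison shares its Vill and Alb libraries with those above, so it adds no independent libraries. In Vill 24 of 26 synthesis and uptake genes were higher than in Alb (median log2 0.43, all genes 0.02), and 6 of the 8 export genes were lower (median -0.14). Without Vill 1 the synthesis median was 0.27, and without Vill 3 the export median was -0.28. No member was called by edgeR (0.00508% of genes) or limma-voom, and DESeq2 called 1, Idi1, among 90 of 19660 genes (0.458%). At an unadjusted p under 0.05 stood 16 synthesis and uptake genes, all higher in Vill (3.98% of all genes), and 2 export genes, both lower (4.89%). Groups did not overlap for 6 synthesis and uptake genes, higher in Vill (2.31%), and for 2 export genes, lower in Vill (2.22%).

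The 6 without overlap were Hmgcs1, Mvd, Idi1, Msmo1, Srebf2 and Stard4, the library values of which are given above. Idi1 in Vill was at 172% of Alb (log2 0.79, SE 0.16, 95% interval 0.44 to 1.13, edgeR adjusted p = 0.391, DESeq2 adjusted p = 0.0134). The authors' deposited table gives Idi1 a log2 difference of 0.77 with an adjusted p of 0.0544, which is not called. Mvd was at 176% (log2 0.82, SE 0.22, edgeR adjusted p = 0.46), Stard4 at 135% (log2 0.44, SE 0.12, edgeR adjusted p = 0.491) and Msmo1 at 151% (log2 0.59, SE 0.17, edgeR adjusted p = 0.513). The 2 export genes without overlap were Abca1, at 69.8% of Alb (log2 -0.52, SE 0.17, edgeR adjusted p = 0.515), and Nr1h2, at 94.9% with an interval that covered 0. Abcg1 was lower too (log2 -0.55, 95% interval -0.995 to -0.114), with 1 Vill library, Vill 4, above the lowest Alb library.

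Outside the 34 genes, 11 of 12 fatty acid genes had higher values in Vill than in Alb (median 0.30), led by Fasn (log2 0.74, SE 0.20, edgeR adjusted p = 0.46). In the isoprenoid branch 8 of 11 were higher, and Pdss1 (0.48) and Pdss2 (0.32), the subunits that build the coenzyme Q tail, did not overlap between the groups. All 12 markers of dividing crypt cells were higher in Vill (median 0.72), all 8 epithelial markers were higher (median 0.13), and all 10 smooth muscle markers were lower (median -0.85), with sums of 1170 to 7420 CPM in Vill against 4960 to 13100 in Alb. Their part in the cholesterol difference was not tested.

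On the high fat diet the ff libraries were divided among themselves. HFD ff 1 and 3, with the highest small intestine sums on HFD, held the lowest HFD level for 16 and 7 of the 26 synthesis and uptake genes. They also had the highest HFD sums of colonocyte markers (10100 and 13600 CPM, others 3680 to 7980). The same held for neuron and glia markers (259 and 173 CPM, others 13.4 to 129). For small intestine markers the direction on chow was opposite. There ff 2 (1350 CPM) and Vill 1 (1120 CPM), with the highest small intestine sums, held the highest level for 9 and 12 of the 26. A relation between these markers and the synthesis genes was not tested. Idi1 stood at 41.7, 101, 43.7 and 98.7 CPM in HFD ff and at 88.5, 76.1, 76.7 and 117 in HFD Vill. Msmo1 stood at 89.8, 231, 110 and 255 CPM in ff and at 202, 169, 173 and 289 in Vill. All Vill libraries lay above ff 1 and 3, and ff 2 and 4 lay inside the Vill range.

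Cyp51 followed the same division, at 107, 208, 118 and 291 CPM in ff and 236, 200, 147 and 293 in Vill. Mvd stood at 24.1, 49.0, 26.9 and 58.0 CPM in ff and at 56.9, 44.4, 31.6 and 55.9 in Vill. Hmgcs1 stood at 222, 398, 246 and 517 CPM in ff and at 502, 323, 279 and 448 in Vill. In each of these the ff pair 1 and 3 lay below all Vill libraries and the pair 2 and 4 inside or above their range.

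Sqle stood at 71.9, 157, 78.3 and 167 CPM in HFD ff and at 183, 129, 113 and 180 in Vill. Stard4 stood at 250, 332, 283 and 370 CPM in ff and at 324, 298, 376 and 362 in Vill. Insig1 stood at 76.0, 128, 86.7 and 133 CPM in ff and at 146, 77.1, 120 and 114 in Vill. For Insig1 the division was blurred, with Vill 2 close to ff 1. Lss stood at 47.1, 66.8, 64.7 and 73.2 CPM in ff and at 84.3, 56.3, 48.8 and 67.0 in Vill, and Fdps at 4.65, 7.79, 8.14 and 10.4 in ff and at 12.9, 7.93, 5.62 and 9.18 in Vill, both with ff 3 beside the high pair.

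Against this spread 23 of 26 synthesis and uptake genes had higher values in HFD Vill than in HFD ff (median log2 0.17, all genes -0.0038), and the export genes had a median of 0.01. Without HFD ff 1 and 3 the synthesis median turned to -0.12, with 21 of 26 lower. These libraries held the lowest HFD level for most of these genes. Leaving them out was therefore bound to lower the median, and the change of sign is no independent check. No member was called by edgeR, DESeq2 or limma-voom (0.00564% of genes by edgeR), and 1 of the 34, Ggps1, had an unadjusted p under 0.05 (3.45% of genes). No member was higher in all Vill than in all ff libraries (1.2% of genes) and only Ggps1 was lower in all of them (0.898%).

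Ggps1 stood at 49.7, 38.5, 53.7 and 37.6 CPM in HFD ff and at 33.9, 35.97, 32.1 and 35.6 in HFD Vill. It was high in the ff libraries in which most synthesis genes were low, and the groups did not overlap (log2 -0.39, SE 0.14, 95% interval -0.70 to -0.08, edgeR adjusted p = 0.932). Without HFD ff 1 and 3 its difference was -0.14. Srebf2 stood at 181, 197, 177 and 222 CPM in ff and at 286, 207, 193 and 241 in Vill (log2 0.25, interval -0.07 to 0.58). Scap stood at 44.9, 53.5, 46.5 and 54.9 CPM in ff and at 60.3, 56.1, 54.3 and 54.5 in Vill (log2 0.17, interval -0.05 to 0.38). Dhcr7 stood at 63.8, 98.5, 61.1 and 80.8 CPM in ff and at 102, 75.7, 94.2 and 90.5 in Vill (log2 0.25, interval -0.12 to 0.62). These 3 overlapped between the groups, as did Insig2, at 52.3, 38.8, 64.1 and 51.4 CPM in ff and 48.9, 46.0, 41.5 and 48.6 in Vill.

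The export pumps overlapped between the genotypes on HFD. Abca1 stood at 19.2, 19.7, 21.2 and 13.5 CPM in ff and at 9.67, 12.9, 21.4 and 15.1 in Vill (log2 -0.32, 95% interval -0.89 to 0.24). Abcg1 stood at 4.48, 3.61, 4.47 and 4.91 CPM in ff and at 3.01, 4.30, 5.11 and 5.29 in Vill (log2 0.01, interval -0.51 to 0.54). Soat1 followed the division of the ff libraries, at 41.8, 67.7, 27.3 and 87.9 CPM, against 66.0, 54.1, 82.8 and 87.7 in Vill (log2 0.37, interval -0.38 to 1.11).

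Nr1h2 stood at 68.6, 69.0, 77.3 and 69.0 CPM in HFD ff and at 75.3, 66.5, 67.8 and 78.0 in Vill, and Nr1h3 at 18.2, 22.0, 21.4 and 14.9 in ff and at 16.4, 17.0, 22.1 and 13.5 in Vill. Mylip stood at 28.4, 30.2, 30.9 and 23.1 CPM in ff and at 14.2, 19.6, 37.6 and 21.7 in Vill. Npc1 stood at 41.1, 34.9, 44.3 and 32.8 CPM in ff and at 41.3, 31.1, 39.7 and 44.8 in Vill, and Npc2 at 129, 278, 132 and 251 in ff and at 144, 159, 276 and 318 in Vill. Npc2 shared the low values of ff 1 and 3 with the synthesis genes, whereas Npc1 had its 2 higher ff values there.

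Of 28 other genes of sterol handling tested on HFD, 10 had higher and 18 lower values in Vill, and none was called. Apoe, an apolipoprotein that accepts exported cholesterol, was at 82.4 ± 7.47 CPM in Vill and 108 ± 6.55 in ff without overlap (SD, n = 4, log2 -0.39, SE 0.09, edgeR adjusted p = 0.932). Osbp, an oxysterol binding protein, was at 136 ± 6.49 against 111 ± 10.1 CPM, also without overlap (log2 0.28). Of the 12 fatty acid genes 8 had higher values in Vill, with Scd1 at -0.56 without overlap and Fasn at 0.39. In the isoprenoid branch 5 of 11 were higher. Small intestine markers were lower in Vill for 6 of 7 tested genes (median -0.97), T cell markers for 6 of 6 (median -0.91), neuron and glia markers for 10 of 10 (median -0.81) and adipocyte markers for 6 of 6 (median -1.31). Markers of the epithelium were higher in Vill for 8 of 8 genes (median 0.28), those of dividing crypt cells for 11 of 12 (median 0.27) and those of goblet cells for 7 of 8 (median 0.28). The part of these lists in the differences was not tested.

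Whether the genotype difference itself differed between the sets was tested as an interaction over the 16 ff and Vill libraries. Diet, age and deposited table differ together between the sets. No member was called by edgeR, DESeq2 or limma-voom (0% of 19516 genes by edgeR). For Abcg1 the log2 difference of -0.59 on chow and 0.01 on HFD gave an interaction of 0.61 (SE 0.28, 95% interval 0.01 to 1.22, edgeR adjusted p = 1), and it was the 1 member of 34 at an unadjusted p under 0.05 (2.54% of genes). The synthesis and uptake genes had a median interaction of 0.20, with 21 of 26 higher. The median became -0.07 without HFD ff 1 and 3, a fall that was bound to follow, since these libraries were low in most of these genes. Idi1 (0.47, interval -0.33 to 1.28), Acat2 (0.37, interval -0.20 to 0.93), Dhcr7 (0.23) and Ggps1 (-0.32, interval -0.75 to 0.11) had the smallest p-values among the synthesis and uptake genes. Soat1 stood at 0.28 (interval -0.66 to 1.22).

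Levels on the 2 diets are set side by side without a test, since diet, age and table differ together. Abcg1 was at 10.1 ± 1.32 CPM in chow ff and 4.37 ± 0.55 in HFD ff (SD, n = 4), and no HFD library reached the lowest chow library. Srebf2 was at 276 ± 39.7 and 194 ± 20.6, Nr1h2 at 99.2 ± 3.86 and 71.0 ± 4.22, and Stard4 at 249 ± 23.9 and 309 ± 52.9 CPM. Nr1h2 had no overlap between chow and HFD libraries of any genotype, while Idi1 in HFD ff spread from below to above the whole chow ff range.

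Within a diet many synthesis genes were high or low in the same libraries. Each class was summarised in each library by the mean log2(CPM + 0.5) of its genes, centred on the libraries of the same diet. On chow the synthesis and uptake mean ran from -0.48 in Alb 2 and -0.41 in Alb 4 to 0.45 in ff 2 and 0.46 in Vill 1. The export mean was highest in Alb 2, at 0.25, and lowest in Vill 1, at -0.37. On HFD the synthesis mean was lowest in ff 1 (-0.43) and ff 3 (-0.32) and the export mean in Vill 1 (-0.28). The chow libraries at the low end of synthesis had export means above 0 and those at the high end had export means below 0, an arrangement that the HFD libraries did not show. These means describe the libraries and were not tested.

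**Figure D4:**
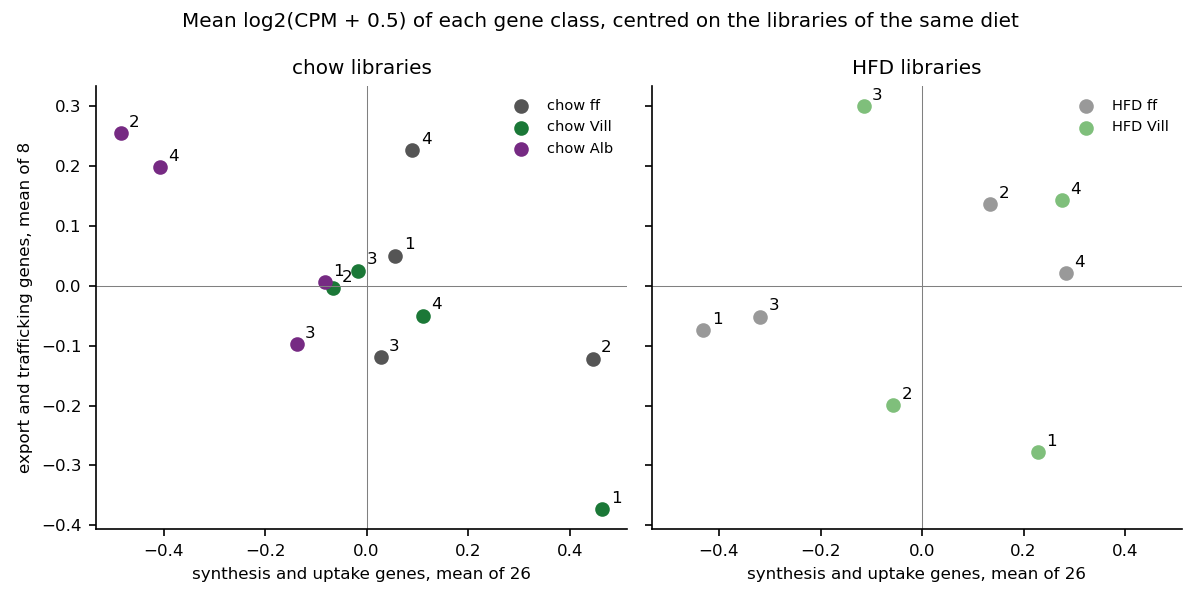
Mean of log2(CPM + 0.5) over the 26 synthesis and uptake genes (horizontal) and over the 8 export, esterification and trafficking genes (vertical) in each chow library (left) and HFD library (right), each gene centred on the libraries of its diet; numbers are replicate numbers. On chow, Alb 2 and Alb 4 lie at the left and above 0 while ff 2 and Vill 1 lie at the right and below 0, and on HFD ff 1 and ff 3 lie at the far left.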

How the data were processed

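Colon RNA-seq of 20 libraries was analysed from 2 deposited tables, with read counts per gene for 12 chow and 8 HFD libraries. Per the submitters' processing notes, the authors used build mm39 with edgeR 3.22.5, HISAT2 2.0.5, DESeq2 1.20.0 and featureCounts 1.5.0-p3. Fold changes on the log2 scale and adjusted p-values of the authors' own comparisons stand in the same deposited tables and are quoted only as such. The labels quote a stranded and a non-stranded protocol, and which applies was not settled. A further 28 per-sample columns were not used.

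Counts were tested with edgeR 4.0.16 in R 4.3.3 (TMM, filterByExpr, quasi-likelihood test, Benjamini-Hochberg over all genes, threshold 0.05): 19701 genes in one fit of the 12 chow libraries, 17715 on HFD and 19516 in the interaction. Intervals are 95%. DESeq2 1.42.0, limma-voom (limma 3.58.1), another scaling, no filter, a replicate block and omitted libraries were alternatives. Levels are CPM on one TMM scale over the 20 libraries. The test was checked on simulated data. The members, gene lists and tests were chosen with earlier results of these data known. Values in every library were given for fixed representatives of each role. They were also given for the 4 synthesis and uptake genes and 2 export genes with the smallest p in each comparison. Sc5d, Acat2 and, on chow, Ggps1 are exceptions, without values per library. Genes named from the other pathway lists were among the 2 with the smallest p, and not every list and comparison has genes named. Osbp, Apoe, Scd1 and Fasn are such genes on HFD. Marker lists for liver, adipocytes and endothelium were also summed in every library.

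No 2 libraries were duplicates (highest correlation of log2 CPM 0.988). Replicate numbers were not used to pair libraries in the main fits. Deviations of same-numbered libraries from their group means correlated between -0.66 and 0.57, which does not settle whether any were paired.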

Additional observations from a re-analysis of the deposited data

Results flagged for a closer look

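Of 170 combinations of a gene and a group, 8 held a library set far from the other 3. The rule flags about 1 in 20 by chance. That rate does not give the number to expect here, since many synthesis genes moved together in the same libraries. Chow ff 2 accounts for 4 of the 8: Lss at 78.1 CPM (others 47.7 to 48.6), Hsd17b7 at 59.8 (29.9 to 34.0), Srebf2 at 335 (254 to 260) and Npc1 at 81.9 (40.5 to 46.6). Chow Vill 1 held Lss at 99.1 CPM, against 40.3 to 48.4 in the other chow Vill libraries. Mvk was low in HFD Vill 3, at 20.0 CPM against 24.5 to 24.9. Nr1h2 was low in chow ff 4, at 93.4 CPM against 101 to 102, and high in HFD ff 3, at 77.3 against 68.6 to 69.0. No member was called in the test of the interaction, in which diet, age and deposited table differ together. This does not show that the effects were equal.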

How the results depend on the processing

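Of 742 values recomputed under another setting, 730 held: single genes kept their sign and their side of the threshold, and medians and levels moved by less than the spread between replicates. Counts of called members are among the 730 and stayed at 0. Most edgeR adjusted p-values lay far above the threshold, so keeping to the same side of it is weak support. Among the 730, medians near 0 changed sign, such as the HFD export median (-0.04 to 0.03 with 1 library left out). DESeq2 called 1 member, Idi1, in Alb against ff (log2 -0.92, adjusted p = 0.00241) and 1 in Vill against Alb (log2 0.77, adjusted p = 0.0134), where edgeR called 0; the cause was not tested. With HFD ff 1 and 3 left out, the HFD median of synthesis and uptake genes moved to -0.12, with Soat1 at -0.10. The interaction median moved to -0.074, with Idi1 at -0.011, Dhcr7 at -0.0074 and Soat1 at -0.19. Only 2 ff libraries remain there. Those left out were low in most synthesis genes, so the fall of these medians was bound to follow. In chow Vill against ff, Msmo1 ranged from -0.27 to 0.0042 (without ff 2) and the export median from -0.26 (without Vill 3) to 0.013 (without ff 4) when 1 library was left out. The replicate block gave synthesis medians of -0.04 (Vill against ff), -0.49 (Alb against ff), 0.45 (Vill against Alb), 0.19 (HFD) and 0.21 (interaction) and called 0 members. With 4 libraries a group, a member's 95% interval is often wider than its difference, and Abcg1 and Fdps rest on few reads.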
